A study of Mus musculus with 15 samples.

Results

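The genes described here encode MLL, its fusion partner ENL and other nuclear proteins linked to MLL fusions. They are Kmt2a, Men1, Psip1, Dot1l, Mllt1, Mllt3, Mllt10, Aff1, Aff4 and Cdk9. They were chosen by symbol, as 10 of the 53379 genes named in the deposited table of normalized read counts, and all 10 passed the filter on low values that 12673 genes passed. The RNA-seq libraries came from mouse fetal liver cells carrying floxed Cebpa and Cebpb alleles, transformed with a retrovirus encoding MLL-ENL and grown in IL-3 (10 ng/ml). In 2 clones, named C1 and C2 and derived from different mice, WT cells had kept both genes, and dKO cells had lost Cebpa and Cebpb and expressed GFP. In C1, LAPS cells were dKO cells that expressed GFP and the long C/EBPβ isoform LAP* from rat. Each of the 5 groups had 3 libraries, made from RNA of 1 line isolated at different times, so p-values measure the spread between samples of a line. The dKO lines were rare subclones that survived TAT-Cre treatment. The study reports high C/EBPε protein in all dKO clones it recovered and raised Cebpe RNA in those sequenced. Partly deleted clones were pooled before TAT-Cre treatment was repeated, and descent of a dKO line from its WT line was not tested. The loss of Cebpa and Cebpb, the high C/EBPε, the vector and the outgrowth of a subclone cannot be told apart within a clone. All groups carried the MLL-ENL transgene. Its part in the reads of Kmt2a and Mllt1, the genes fused in it, was not tested.

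MLL, the product of Kmt2a, is a histone H3K4 methyltransferase that is held at its target genes by menin (Men1) and by the chromatin reader LEDGF (Psip1). In leukaemia its N-terminal part is fused to partners such as ENL (Mllt1), AF9 (Mllt3), AF10 (Mllt10) or AF4 (Aff1). ENL and AF9 are related proteins that read acylated histones through a YEATS domain and contact the H3K79 methyltransferase DOT1L, with its cofactor AF10. They also contact the super elongation complex, in which AF4 or AFF4 is the scaffold and CDK9, the kinase of P-TEFb, releases paused RNA polymerase II.

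The libraries held 9212237 to 13613500 reads on genes. Cebpa and Cebpb were listed at 0 in all dKO libraries of both clones. In LAPS libraries Cebpb had 2538 to 4216 normalized reads, and how reads of the rat transgene were assigned was not tested. Of 8 myeloid progenitor markers, 7 or 8 reached 10 reads in each group. Of 9 markers of erythroid, lymphoid, hepatic, stromal and endothelial cells, 6 to 8 were at 0 in each group, and Afp (4.61 to 165 normalized reads) was detected in every library.

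Per kb of exon, the scale on which levels of different genes can be set side by side, the genes spanned a wide range. Mean levels over the 15 libraries were 323 normalized reads per kb for Aff1 and 293 for Cdk9, which were the highest 2 of the 10 in every group. Mllt3 was the lowest of the 10 in every group, with a mean of 5.80 normalized reads per kb, and Men1 (54.7) was ranked 9 in every group. Of the 12660 tested genes with a known exon length, 83.5% lay below Aff1 and 9.94% below Mllt3 on this scale. Of the 2 YEATS genes described here, Mllt1 had the higher level, with a mean of 219 normalized reads per kb. The part of the MLL-ENL transgene in that level was not tested. The genes differed in how far their groups lay apart. The highest group mean was 2.76 times the lowest for Mllt3, 1.60 times for Kmt2a and 1.14 times for Cdk9.

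**Figure D1:**
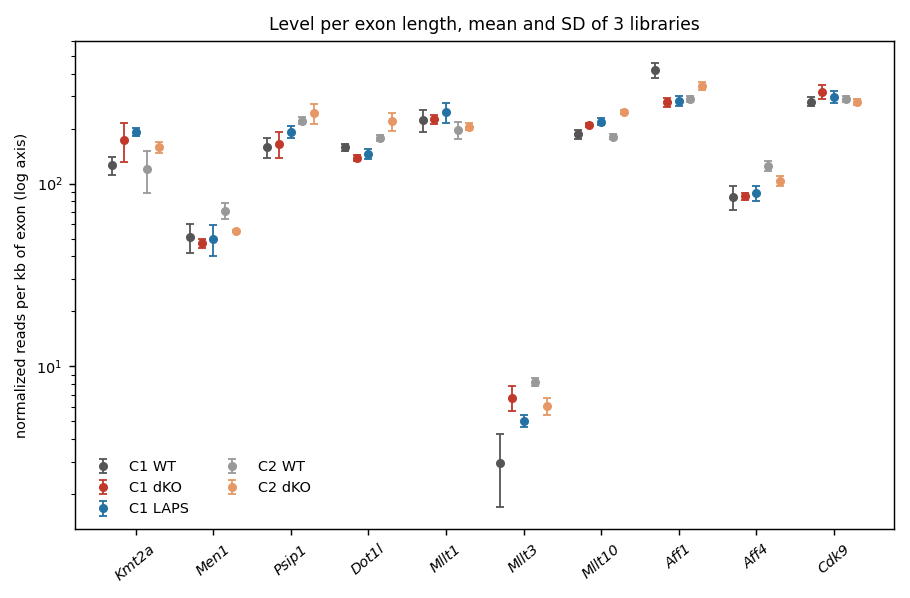
Level of each gene in normalized reads per kb of exon (log axis), with points for the mean and bars for the SD of 3 libraries in each of the 5 groups. Mllt3 lies below the other 9 genes in every group, and Aff1 and Cdk9 lie highest.

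**Figure D2:**
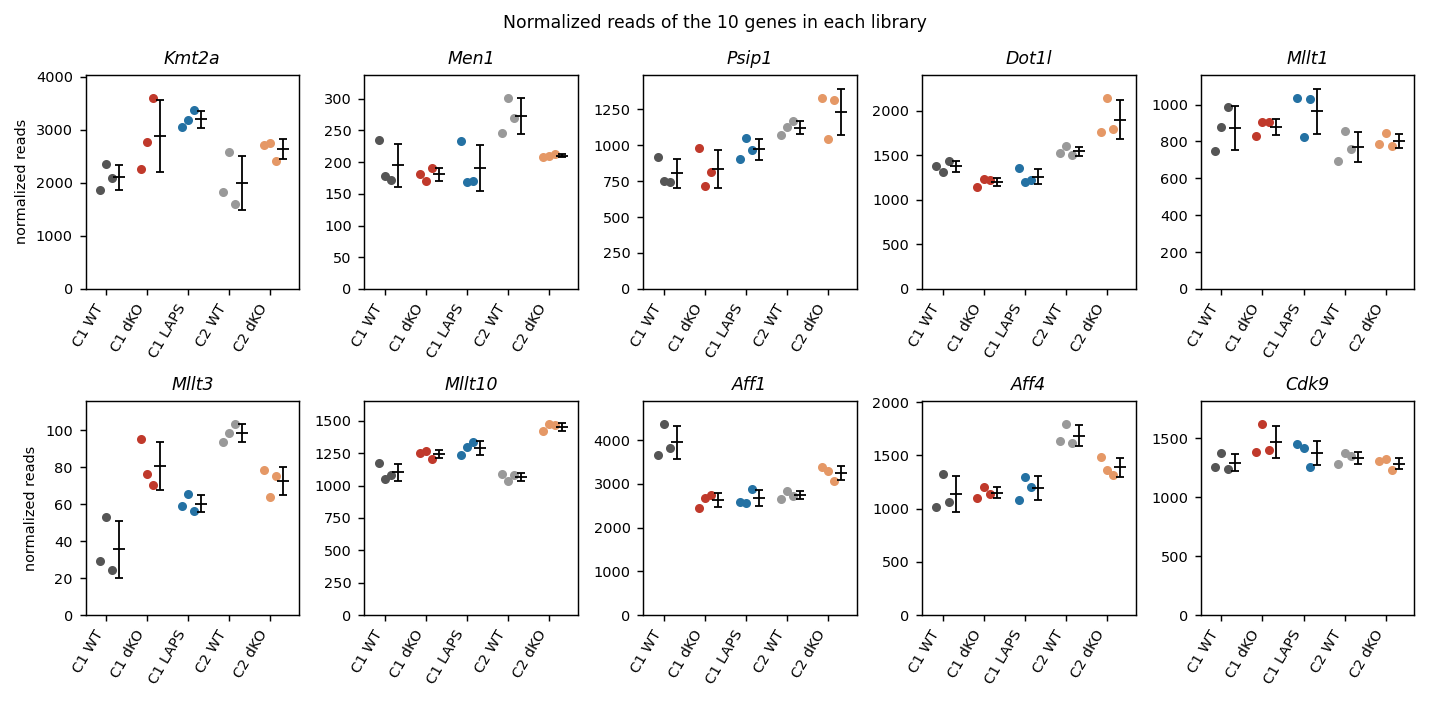
Normalized reads of each gene in each library (points, linear axis from 0, a scale per gene) with the mean and SD of 3 libraries beside them (black). The C1 WT libraries are the highest of all for Aff1 (3670 to 4374) and the lowest for Mllt3 (24.5 to 53.2).

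Of the 10 genes, Aff1 and Mllt3 had the dKO effects that differed most between C1 and C2, so the sequence before a start site of each is shown. The sequences are from RefSeq (GRCm38.p6), 250 bases each, 5′ to 3′ on the strand of the gene, with each CG dinucleotide in capitals. The first is chr5:103753912-103754161 on the plus strand and the second is chr4:88033408-88033657 on the minus strand.
Aff1: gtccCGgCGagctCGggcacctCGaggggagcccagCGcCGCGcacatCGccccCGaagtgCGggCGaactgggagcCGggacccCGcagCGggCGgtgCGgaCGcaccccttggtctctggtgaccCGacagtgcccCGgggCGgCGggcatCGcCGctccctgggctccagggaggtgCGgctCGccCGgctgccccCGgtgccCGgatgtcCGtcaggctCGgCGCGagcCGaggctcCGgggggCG
Mllt3: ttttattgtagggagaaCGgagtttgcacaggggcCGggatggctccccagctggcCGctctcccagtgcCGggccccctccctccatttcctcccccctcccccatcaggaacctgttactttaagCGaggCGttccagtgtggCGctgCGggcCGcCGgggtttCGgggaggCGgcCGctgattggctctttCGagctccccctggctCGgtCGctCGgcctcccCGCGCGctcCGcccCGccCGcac
The Aff1 window held 35 CG dinucleotides and the Mllt3 window 23. Each was the richer of the windows listed for its gene, and the other held 20 for Aff1 and 4 for Mllt3. Among 32851 such windows of all genes the median was 6, and 13.3% held 23 or more. Psip1 was not matched. The other 9 genes had 15 windows, and the window with most CG dinucleotides held 10 (Men1) to 44 (Dot1l) in these 9 genes. These are the richest windows per gene, whereas the median and share of all genes are over single windows. TTGCNNAA, a relaxed form of the C/EBP consensus, was searched on both strands (TTNNGCAA on the other). It was found in 1 of the 15 windows, of Mllt10, and in 9.56% of all windows. CCAAT, or ATTGG on the other strand, was found in 8 of the 15 windows, of Mllt10, Cdk9, Mllt3, Mllt1 and Men1, and in 33.8% of all windows. The motifs were counted separately, overlaps included, and a match describes letters only. The windows of Men1 share most of their bases, so 1 site can count in each of them.

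Whether loss of Cebpa and Cebpb went with a change in these genes was first read as counts. In C1, 3 of the 10 genes passed the test of dKO against WT cells (adjusted p under 0.05, limma), against 37.0% of all genes tested. Mllt3 and Mllt10 rose and Aff1 fell. In C2, 4 passed, against 37.6% of all genes. Mllt10, Dot1l and Aff1 rose and Aff4 fell. The shares of the 10 genes were near those of all genes in both clones. The median log2 fold change of the 10 genes was 0.04 in C1 and 0.09 in C2, beside -0.01 and -0.03 over all genes tested. Groups did not overlap for 5 of the 10 genes in C1 (45.2% of all genes) and for 6 in C2 (51.5%). Under quantile normalization the share of all calls in C1 that were higher went from 46.3% to 56.6%. Mllt10 was the one gene whose calls in C1 and C2 had the same sign (14.1% of all genes), and Aff1 the one whose calls had opposite signs (4.10%).

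The difference between the dKO effects of the clones was tested directly. It passed for 4 of the 10 genes, against 29.4% of all genes tested, with the effect in C2 above that in C1 for Aff1, Dot1l and Mllt10 and below it for Mllt3. Myeloid markers were read by groups that did not overlap between dKO and WT libraries (45.2% of all genes in C1 and 51.5% in C2). In C1, 5 of the 8 were higher in dKO than in WT libraries without overlap (Kit, Cd34, Mpo, Itgam and Fcgr3), 2 were lower (Ly6c2 and Csf1r) and 1 overlapped. In C2, 4 were higher (Kit, Cd34, Mpo and Fcgr3), none was lower and 4 overlapped, a count near the share of all genes. Their summed reads were mostly those of Ly6c2 and Mpo, and Mpo, the granule enzyme myeloperoxidase, had means of 14175 and 69702 normalized reads in C1 WT and dKO cells and 2798 and 22686 in those of C2. The 8 markers summed to 46771 to 61191 normalized reads in C1 WT libraries and 93021 to 108208 in C1 dKO libraries, and to 23799 to 28175 and 51321 to 58812 in C2 WT and dKO libraries. The markers of other cells summed to 27.1 to 36.1 and 17.0 to 18.5 in C1 WT and dKO libraries, and to 112 to 173 and 73.9 to 84.7 in those of C2. Their part in the results was not tested. In these bulk samples, fewer cells of a type and less RNA per cell cannot be told apart.

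**Figure D3:**
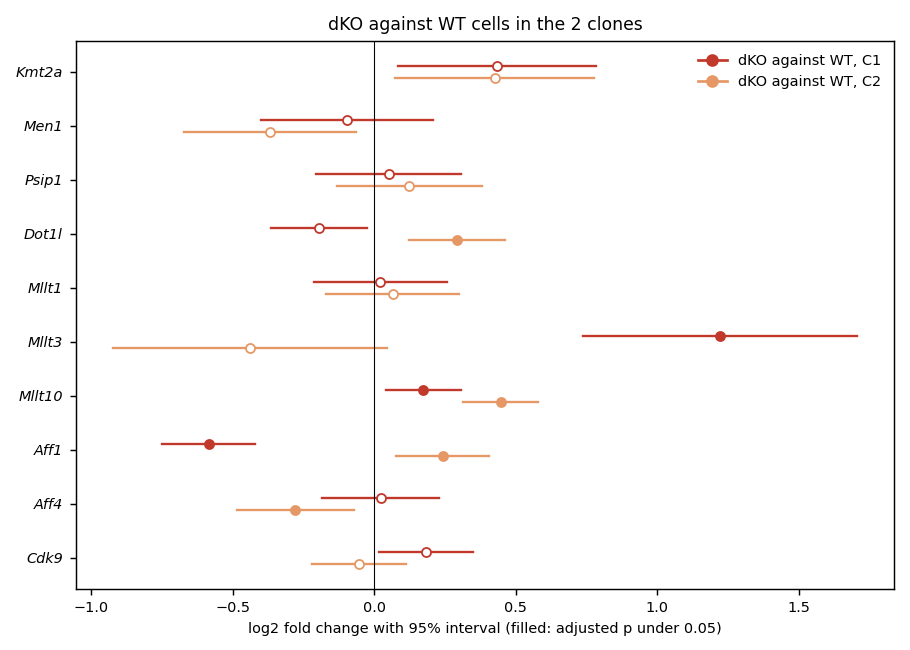
Log2 fold change of dKO against WT cells in C1 and C2 with 95% intervals from limma, filled where the adjusted p was under 0.05. The points of Aff1, Dot1l, Mllt3, Aff4 and Cdk9 lie on opposite sides of 0 in the clones, and only Mllt10 has a filled point above 0 in both.

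Kmt2a (ENSMUSG00000002028, chromosome 9 from 44803355 to 44881296 on the minus strand, mm10) encodes MLL itself. Of its exon bases, 2.27% overlap an antisense gene, AC061963.1. In C1 its WT libraries had 1863, 2348 and 2094 normalized reads, its dKO libraries 2263, 2762 and 3609, and its LAPS libraries 3052, 3176 and 3364. In C2 its WT libraries had 1826, 2575 and 1593 and its dKO libraries 2722, 2759 and 2416. Both WT groups were the lowest, WT and dKO overlapped within each clone, and LAPS lay above all WT libraries. Kmt2a differed between dKO and WT cells by 0.43 ± 0.16 (log2, SE) in C1 and 0.42 ± 0.16 in C2, and neither passed the test (adjusted p = 0.0503 and 0.0539, limma). These values lay at the threshold. In C1 the call was made without WT replicate 2 (adjusted p = 0.043, limma) or dKO replicate 1 (0.0124), and in 5 of 8 alternative settings (0.0136 to 0.0486). Without C1 dKO replicate 3 the difference was 0.26 (0.251). In C2 it was made without WT replicate 2 (0.0059), with the replicate block (0.0475) and by DESeq2 (0.044), and without C2 WT replicate 3 the difference was 0.28 (0.242). In LAPS cells Kmt2a was 1.53-fold higher than in WT cells of C1 (0.61 ± 0.16, adjusted p = 0.00923, limma), and this call held in all 8 alternatives and without any single library. LAPS and dKO cells overlapped (0.18 ± 0.16, adjusted p = 0.636, limma; 95% interval -0.17 to 0.53), with a difference of 0.017 without C1 dKO replicate 1 and 0.35 without C1 dKO replicate 3.

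Men1 (ENSMUSG00000024947, chromosome 19 from 6334979 to 6340891, plus strand) encodes menin, the scaffold between MLL and LEDGF. Its C1 libraries had 234, 179 and 172 normalized reads in WT, 181, 170 and 191 in dKO and 233, 169 and 171 in LAPS cells, and these 3 groups overlapped. In C2 the WT libraries had 246, 302 and 270 and the dKO libraries 208, 209 and 213, with no overlap. The C2 difference of -0.37 ± 0.14 missed the threshold (adjusted p = 0.0535, limma). It passed in a fit of C2 WT and dKO libraries only (0.0272) and without C2 WT replicate 1 (0.0469). Between the WT lines Men1 was 1.41-fold higher in C2 (0.49 ± 0.14, adjusted p = 0.0119, limma). That call was lost without C1 WT replicate 3 (0.0527) or C2 WT replicate 2 (0.0582).

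Psip1 (ENSMUSG00000028484, chromosome 4 from 83455680 to 83486459, minus strand) encodes LEDGF, which reads methylated H3K36. Of its exon bases, 9.50% overlap Snapc3 on the opposite strand, and the strand setting of the read counting is not given in the sources used here. Psip1 had 918, 749 and 746 normalized reads in C1 WT, 980, 713 and 815 in C1 dKO and 904, 1051 and 965 in LAPS libraries. It had 1075, 1127 and 1169 in C2 WT and 1333, 1046 and 1314 in C2 dKO libraries. WT and dKO libraries overlapped in both clones, and C2 WT libraries lay above all C1 libraries. The C2 WT line was 1.40-fold above the C1 WT line (0.49 ± 0.12, adjusted p = 0.00409, limma), a call that held in all 8 alternatives. The dKO differences were 0.05 ± 0.12 in C1 and 0.12 ± 0.12 in C2 and did not pass (adjusted p = 0.783 and 0.452, limma). LAPS against WT cells (0.28 ± 0.12, adjusted p = 0.0912, limma) passed under quantile normalization (0.0299) and without C1 WT replicate 1 (0.0394).

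Mllt1 (ENSMUSG00000024212, chromosome 17 from 56892611 to 56935415, minus strand) encodes ENL, the partner in the fusion carried by these cells. Its libraries had 748, 879 and 985 normalized reads in C1 WT, 828, 907 and 903 in C1 dKO and 1038, 824 and 1031 in LAPS cells. In C2 they had 694, 857 and 760 in WT and 788, 846 and 777 in dKO cells. Groups neighbouring in level overlapped throughout, and Mllt1 was called in none of the 6 comparisons. Its dKO differences were 0.02 ± 0.11 in C1 (adjusted p = 0.903, limma) and 0.06 ± 0.11 in C2 (0.683), with 95% intervals from -0.21 to 0.26 and from -0.17 to 0.30.

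Mllt3 (ENSMUSG00000028496, chromosome 4 from 87769925 to 88033364, minus strand) encodes AF9, the YEATS relative of ENL. In C1 its libraries had 29.4, 53.2 and 24.5 normalized reads in WT, 95.1, 76.6 and 70.6 in dKO and 58.9, 65.5 and 56.5 in LAPS cells. In C2 they had 93.6, 98.6 and 104 in WT and 78.5, 64.2 and 75.1 in dKO cells. The 3 C1 WT libraries were the lowest of all 15, and the other groups lay between 56.5 and 104. Mllt3 rose 2.33-fold in dKO cells of C1 (1.22 ± 0.23, adjusted p = 0.000519, limma), a call that held in all 8 alternatives and without any single library. In C2 the groups did not overlap and the difference of -0.44 ± 0.23 did not pass (adjusted p = 0.143, limma). It passed in a fit of C2 WT and dKO libraries only (0.0462) and was -0.27 under quantile normalization (0.325). The dKO effect in C2 was below that in C1 by -1.66 ± 0.32 (adjusted p = 0.00104, limma). The WT lines themselves differed, with Mllt3 2.86-fold higher in C2 (1.52 ± 0.23, adjusted p = 5.58e-05, limma). LAPS cells lay below dKO cells without overlap (-0.41 ± 0.23, adjusted p = 0.373, limma), which did not pass. They were 1.76-fold above WT cells of C1 (0.82 ± 0.23, adjusted p = 0.0114, limma). That call was lost without C1 WT replicate 3 (0.59, adjusted p = 0.0538) and in a fit of these groups only (0.10).

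Dot1l (ENSMUSG00000061589, chromosome 10 from 80755206 to 80795461, plus strand) encodes the methyltransferase of H3K79. It had 1377, 1314 and 1438 normalized reads in C1 WT, 1146, 1238 and 1223 in C1 dKO and 1355, 1201 and 1228 in LAPS libraries. It had 1533, 1604 and 1506 in C2 WT and 1759, 2151 and 1800 in C2 dKO libraries. The dKO libraries lay below WT libraries in C1 and above them in C2, with no overlap in either clone. In C2 Dot1l rose 1.22-fold (0.29 ± 0.08, adjusted p = 0.00855, limma), a call that held in all 8 alternatives and without any single library. In C1 the difference of -0.19 ± 0.08 did not pass (adjusted p = 0.0669, limma) and was -0.10 under quantile normalization (0.345). The effects differed between the clones by 0.49 ± 0.11 (adjusted p = 0.00383, limma). The WT lines differed by 0.17 ± 0.08 (adjusted p = 0.102, limma), which passed under quantile normalization (0.0413).

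Mllt10 (ENSMUSG00000026743, chromosome 2 from 18055237 to 18212388, plus strand) encodes AF10, the cofactor of DOT1L. Of its exon bases, 12.7% overlap Dnajc1 on the opposite strand, with the same doubt about strand as for Psip1. Its C1 libraries had 1171, 1051 and 1082 normalized reads in WT, 1249, 1266 and 1207 in dKO and 1232, 1296 and 1339 in LAPS cells. In C2 they had 1085, 1032 and 1085 in WT and 1418, 1477 and 1468 in dKO cells. All 9 dKO and LAPS libraries lay above all 6 WT libraries, and C2 dKO libraries lay highest. Mllt10 rose 1.36-fold in C2 (0.45 ± 0.06, adjusted p = 3.72e-05, limma), a call that held in all 8 alternatives and without any single library.

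In C1 Mllt10 rose 1.13-fold (0.17 ± 0.06, adjusted p = 0.0377, limma). That call was made without C1 WT replicate 1 and was lost without C1 WT replicate 2 (0.130) or 3 (0.0834) and without C1 dKO replicate 1 (0.0836), 2 (0.102) or 3 (0.0535). The C1 call was also lost with the replicate block (0.0567), with no filter on low values (0.0799) and in a fit of these groups only (0.0909). The difference between the clones was 0.27 ± 0.09 (adjusted p = 0.0277, limma). It was lost under quantile normalization (0.16, adjusted p = 0.187), with no filter (0.0599) and without C1 WT replicate 1 (0.079), C1 dKO replicate 3 (0.0672), C2 WT replicate 2 (0.0712), C2 dKO replicate 2 (0.0517) or C2 dKO replicate 3 (0.0608). LAPS cells were 1.17-fold above WT cells of C1 (0.23 ± 0.06, adjusted p = 0.00954, limma), which was lost in a fit of these groups only (0.0545).

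Aff1 (ENSMUSG00000029313, chromosome 5 from 103692374 to 103855322, plus strand) encodes AF4, a scaffold of the super elongation complex. In C1 its libraries had 3670, 4374 and 3812 normalized reads in WT, 2450, 2683 and 2754 in dKO and 2595, 2557 and 2884 in LAPS cells. In C2 they had 2666, 2846 and 2727 in WT and 3386, 3296 and 3061 in dKO cells. C1 WT libraries stood above all others, and in C2 the order of WT and dKO was the opposite of that in C1. Aff1 fell to 0.666 of its WT level in dKO cells of C1 (-0.59 ± 0.08, adjusted p = 2.14e-05, limma), a call that held in all 8 alternatives and without any single library. In C2 it rose 1.18-fold (0.24 ± 0.08, adjusted p = 0.0229, limma). The C2 call was lost under quantile normalization (0.0502) and without C2 WT replicate 1 (0.0744) or 3 (0.0623) or C2 dKO replicate 1 (0.0803) or 2 (0.0609). The effects differed between the clones by 0.83 ± 0.11 (adjusted p = 4.46e-05, limma). As with Mllt3, the WT lines differed, and Aff1 was lower in C2 WT than in C1 WT cells (-0.52 ± 0.08, adjusted p = 5.33e-05, limma). In LAPS cells Aff1 stayed below WT cells of C1 (-0.56 ± 0.08, adjusted p = 3.64e-05, limma) and overlapped dKO cells (0.03 ± 0.08, adjusted p = 0.906, limma; 95% interval -0.14 to 0.19).

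Aff4 (ENSMUSG00000049470, chromosome 11 from 53350833 to 53421830, plus strand) encodes the other scaffold. It had 1016, 1329 and 1065 normalized reads in C1 WT, 1101, 1203 and 1138 in C1 dKO and 1079, 1295 and 1206 in LAPS libraries, which overlapped. It had 1636, 1796 and 1617 in C2 WT and 1482, 1363 and 1314 in C2 dKO libraries, which did not. Aff4 was 1.49-fold higher in C2 WT than in C1 WT cells (0.57 ± 0.10, adjusted p = 0.000178, limma), in all 8 alternatives and without any single library. It fell to 0.824 of its WT level in dKO cells of C2 (-0.28 ± 0.10, adjusted p = 0.033, limma). The call in C2 was lost with no filter on low values (0.0537) and without C2 WT replicate 1 (0.0544), 2 (0.128) or 3 (0.0504) or C2 dKO replicate 2 (0.0799) or 3 (0.116). In C1 the difference was 0.02 ± 0.10 (adjusted p = 0.883, limma). The difference between the clones of -0.30 ± 0.14 (adjusted p = 0.114, limma) passed under quantile normalization (0.0465) and without C1 WT replicate 2 (-0.42, adjusted p = 0.0147).

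Cdk9 (ENSMUSG00000009555, chromosome 2 from 32705784 to 32713076, minus strand) encodes the kinase of P-TEFb, and 2 miRNA genes, Mir2861 and Mir3960, lie on its exons on the same strand. Its libraries had 1260, 1375 and 1242 normalized reads in C1 WT, 1387, 1623 and 1398 in C1 dKO and 1448, 1420 and 1254 in LAPS cells. In C2 they had 1278, 1377 and 1352 in WT and 1304, 1320 and 1232 in dKO cells. C1 dKO libraries lay above C1 WT libraries, and groups next to each other in order of level all overlapped. Cdk9 was called in none of the 6 comparisons. Its dKO difference was 0.18 ± 0.08 in C1 (adjusted p = 0.0795, limma), which passed under quantile normalization (0.29, adjusted p = 0.0101) and was 0.11 without C1 dKO replicate 2 (0.323), and -0.06 ± 0.08 in C2 (0.615). The difference between the clones of -0.24 ± 0.11 (0.122, limma) passed under quantile normalization as well (0.0269).

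LAP* was put back in C1, and LAPS cells were compared with dKO and WT cells there. None of the 10 genes differed between LAPS and dKO cells by limma, where 4.46% of all genes passed. None had an unadjusted p under 0.05, and edgeR and DESeq2 called none. The log2 fold changes ran from -0.41 (Mllt3) to 0.23 (Psip1), with a median of 0.06 beside 0.00 over all genes tested. That of Psip1 was 0.35 without C1 dKO replicate 1 and 0.12 without C1 dKO replicate 2. The groups did not overlap for 1 gene, Mllt3 (24.1% of all genes). The narrowest 95% interval was that of Mllt10, from -0.08 to 0.19, and the widest that of Mllt3, from -0.89 to 0.08. Among the myeloid markers, Kit, Itgam and Fcgr3 were lower in LAPS than in dKO libraries without overlap, Cd34 was higher and 4 overlapped, and their sum was 91042 to 107193 normalized reads in LAPS libraries. Their part in these values was not tested.

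Against WT cells of C1, 4 of the 10 genes passed in LAPS cells (32.5% of all genes), with Kmt2a, Mllt3 and Mllt10 higher and Aff1 lower. Under quantile normalization the share of all calls that were higher went from 43.6% to 56.9% in this comparison. The groups did not overlap for 4 genes (40.9% of all genes). Of the 8 myeloid markers, Kit, Cd34 and Mpo were higher in LAPS than in C1 WT libraries without overlap, Ptprc, Ly6c2 and Csf1r were lower and 2 overlapped. Cd34 had means of 2907 and 5.21 normalized reads in LAPS and C1 WT cells, and Csf1r 791 and 3237, and the part of these markers in the result was not tested. The comparisons of dKO and of LAPS cells with WT cells share the 3 C1 WT libraries. Side by side, the log2 fold changes of dKO and LAPS cells were 1.22 and 0.82 for Mllt3, 0.17 and 0.23 for Mllt10, -0.59 and -0.56 for Aff1 and 0.43 and 0.61 for Kmt2a.

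The WT lines of the 2 clones also differed. Of the 10 genes 5 passed, against 41.0% of all genes tested, and the groups did not overlap for 6 (50.6% of all genes). Mllt3, Aff4, Men1 and Psip1 were higher in C2 WT cells and Aff1 was lower. The sixth gene without overlap was Dot1l, which did not pass. Of the 8 myeloid markers, 6 were lower in C2 WT than in C1 WT libraries without overlap (Kit, Cd34, Mpo, Fcgr3, Ly6c2 and Csf1r), none was higher and 2 overlapped. Csf1r, the receptor for M-CSF, had means of 45.9 and 3237 normalized reads in C2 WT and C1 WT cells, Mpo 2798 and 14175 and Kit 307 and 999, and their part in the result was not tested. C1 WT libraries enter this comparison as well as that of dKO with WT cells in C1.

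**Figure D4:**
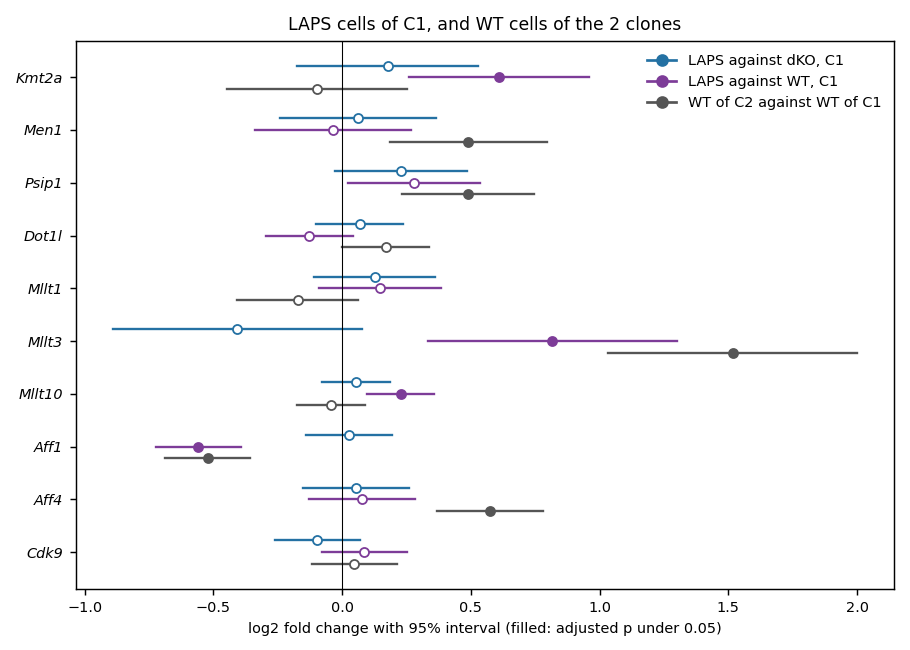
Log2 fold change of LAPS against dKO cells and of LAPS against WT cells in C1, and of WT cells of C2 against those of C1, with 95% intervals from limma and filled points where the adjusted p was under 0.05. No point is filled for LAPS against dKO cells, and 4 and 5 points are filled in the other comparisons.

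The other genes of these complexes were read from 6 lists with 44 genes, of which 41 were tested. Ell3, Eaf2 and Jund had too few reads. Of the 41, 10 passed in dKO against WT cells of C1 (4 higher and 6 lower), against 37.0% of all genes tested, and 15 in C2 (9 higher and 6 lower), against 37.6%. These shares of all genes are also the background for the counts of each list given here. The difference between the clones passed for 8 (29.4% of all genes), none passed for LAPS against dKO cells (4.46%), 8 passed for LAPS against WT cells (32.5%) and 9 between the WT lines (41.0%). Their median log2 fold change was -0.02 in C1 and 0.06 in C2. These values include Aff3, and counts without it are given with the elongation complex subunits.

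Among the 5 other H3K4 methyltransferases of the KMT2 and SET1 type, 0 passed in C1 and 1 in C2. Setd1b had 756 ± 32.1 and 687 ± 77.1 normalized reads (mean ± SD, n = 3) in C1 WT and dKO cells, and 560 ± 13.8 and 790 ± 33.0 in those of C2, where it rose (0.50 ± 0.08, adjusted p = 0.000221, limma). Of the 7 genes in the list of subunits of the KMT2 and SET1 complexes, not all of which occur in every complex, 2 passed in C1 (1 higher) and 4 in C2 (3 higher). Ash2l, a subunit that stimulates their catalysis, rose in C1 from 1357 ± 162 to 2240 ± 60.6 normalized reads and fell in C2 from 2400 ± 70.0 to 1325 ± 144. The log2 fold changes were 0.73 ± 0.09 and -0.86 ± 0.09 (adjusted p = 5.82e-06 and 1.25e-06, limma). Hcfc2, a relative of the host cell factor Hcfc1, fell in C1 (-0.26 ± 0.09, adjusted p = 0.0396, limma) and rose in C2 (0.37 ± 0.09, adjusted p = 0.00533). Its C1 call was lost in 5 of 8 alternatives (0.052 to 0.113) and without C1 WT replicate 1 (0.186) or 2 (0.0594) or C1 dKO replicate 2 (0.170) or 3 (0.0667).

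Of 7 tested subunits of the elongation complex besides the 10 genes, 4 passed in each clone, against 37.0% and 37.6% of all genes in C1 and C2. Aff3, 1 of these in each clone, reached the filter on low values only through the dKO and LAPS libraries, where it was high. The filter thus favoured its calls, and they are no support. Without Aff3, a count added after seeing the data, 3 of 6 passed in each clone. Of the 40 genes left in all lists, 9 passed in C1, 14 in C2 and 7 for LAPS against WT cells. Aff2, a relative of Aff1 and Aff4, fell from 451 ± 20.9 to 111 ± 13.0 normalized reads in C1 (-2.01 ± 0.16, adjusted p = 1.22e-07, limma) and from 630 ± 81.4 to 206 ± 49.99 in C2 (-1.63 ± 0.16, adjusted p = 1.53e-06). Aff3, another relative, was listed at 0 in all 6 WT libraries, at 13.6 to 17.8 in C1 dKO, 3.22 to 25.1 in C2 dKO and 24.4 to 36.9 in LAPS libraries. Against a floor of 3 reads per WT library, the mean of the C1 dKO libraries was at least 5.02-fold higher, and that of the C2 dKO libraries at least 4.17-fold higher. The C2 bound rested on dKO replicate 1 and was 2.02-fold without it, in a check chosen after seeing the data, in which the C1 bound was 4.79-fold to 5.44-fold without any 1 dKO library. Ccnt2, a cyclin that pairs with CDK9, rose in C2 from 686 ± 63.9 to 1116 ± 124 (0.70 ± 0.13, adjusted p = 0.000714, limma).

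Of 11 P-TEFb regulators and pausing factors, 2 passed in C1 (1 higher) and 4 in C2 (2 higher). Hexim1, which holds P-TEFb inactive, fell from 1148 ± 76.5 to 924 ± 26.2 normalized reads in C1 (-0.31 ± 0.06, adjusted p = 0.00103, limma) and from 1203 ± 37.0 to 985 ± 21.6 in C2 (-0.29 ± 0.06, adjusted p = 0.00191). Supt4a, a subunit of the elongation factor DSIF, rose in C1 (0.34 ± 0.09, adjusted p = 0.00596, limma) and in C2 (0.26 ± 0.09, adjusted p = 0.0273). Its C2 call was lost without C2 WT replicate 2 (0.132) or C2 dKO replicate 2 (0.104). Nelfcd, a subunit of the pausing factor NELF, differed by 0.18 ± 0.08 in C1 and -0.20 ± 0.08 in C2, and neither passed (adjusted p = 0.0953 and 0.0635, limma). The C1 difference passed under quantile normalization (0.25, adjusted p = 0.0299).

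Of 6 subunits of the PAF1 complex, which binds MLL and elongating polymerase, 1 passed in C1 (lower) and 2 in C2 (1 higher). Leo1 fell in C1 (-0.30 ± 0.09, adjusted p = 0.0174, limma) and in C2 (-0.26 ± 0.09, adjusted p = 0.0326). The C1 call was lost under quantile normalization (0.0641), in a fit of these groups only (0.0513) and without C1 WT replicate 1 (0.0711) or 3 (0.055) or C1 dKO replicate 1 (0.0718). The C2 call was lost under quantile normalization (0.0671), in a fit of these groups only (0.0502), with no filter (0.0531) and without C2 WT replicate 1 (0.123) or 3 (0.099) or C2 dKO replicate 1 (0.128). Cdc73 rose in C2 from 1044 ± 53.1 to 1456 ± 267 normalized reads (0.46 ± 0.14, adjusted p = 0.0193, limma), which was lost without C2 WT replicate 1 (0.0617) or 2 (0.0519) or C2 dKO replicate 1 (0.0785) or 3 (0.0909). Of 5 tested partners of ENL, AF9, menin and LEDGF, 1 passed in C1 and 0 in C2. Bcor, a corepressor subunit that binds AF9, rose in C1 from 2063 ± 155 to 5247 ± 600 normalized reads (1.34 ± 0.08, adjusted p = 5.08e-09, limma) and had 6264 ± 330 in LAPS cells. In C2 it had 1445 ± 74.3 and 1544 ± 37.0 in WT and dKO cells (0.10 ± 0.08, adjusted p = 0.388, limma).

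**Figure D5:**
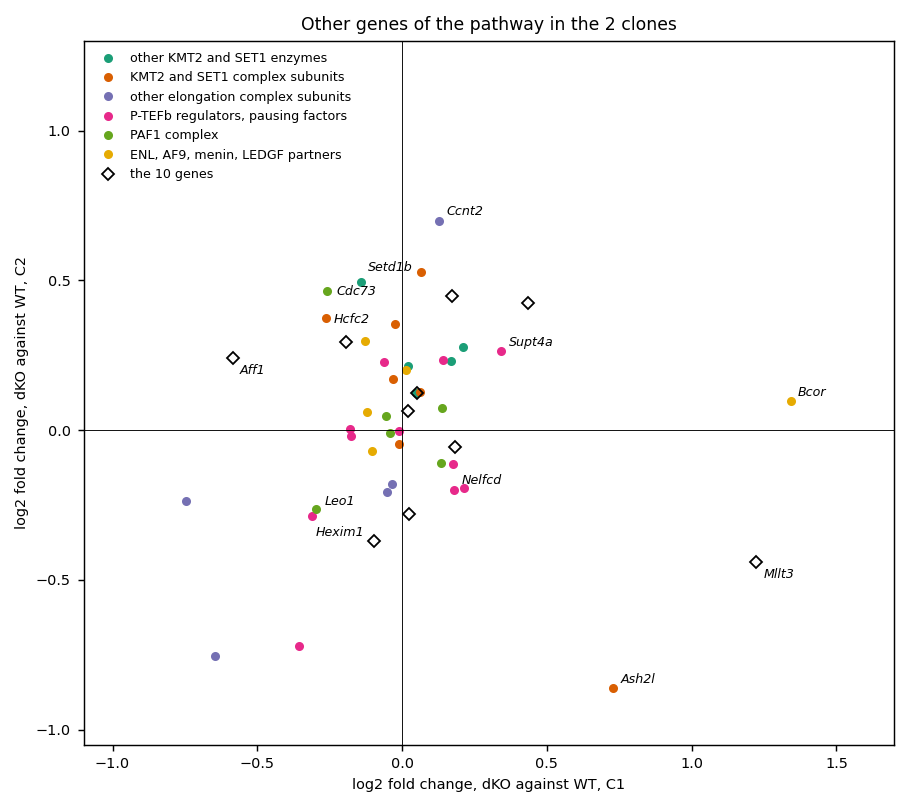
Log2 fold change of dKO against WT cells in C1 (horizontal) and C2 (vertical) for the tested genes of the 6 lists (coloured points) and the 10 genes (diamonds), without Aff2 and Aff3, which lie outside the axes. Bcor and Mllt3 lie farthest to the right, and Ash2l lies to the right and below 0.

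The genes most like Kmt2a and Mllt1 over the 15 libraries were found by Pearson's r of log2(normalized reads + 1) over 12672 other genes, as a description. For Kmt2a they were Zfp871 (r = 0.882), Dync2h1 (0.867) and 9330160F10Rik (0.837). For Mllt1 they were Gm12311 (r = 0.827), Fam219b (0.799) and Hdac3 (0.777). The points share clones and depth.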

How the data were processed

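Per the labels and the methods of the study, the authors prepared stranded mRNA libraries, mapped read pairs to mm10 (STAR 2.5.3a), counted them per gene (HTSeq 0.10.0) and divided the counts by 1 size factor per library (DESeq2 1.26.0). The values the authors deposited are this signal, here called normalized reads. In each column all values above 0 (100%) were multiples of 1 step, to a tolerance of 0.1 of a read, and so gave back the reads. Of the columns, 15 matched a sample, and the 3 others were not used here. The 5 rows of HTSeq that name no gene, with 22.4% to 26.2% of the reads, were left out of totals and tests. Reads per library limit the precision for low genes such as Mllt3.

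The log2 of normalized reads plus 1 was fitted with limma 3.58.1 in R 4.3.3, with the 5 groups as means, 1 estimate of spread from all 15 libraries and a prior that follows the level. The 12673 genes that reached 10 normalized reads in 3 or more libraries were tested. Log2 fold changes (± SE) are on this scale, which understates those of low genes. A two-sided Benjamini-Hochberg adjusted p under 0.05 over all genes tested was a call. There were 6 comparisons: dKO against WT in C1 and in C2, the difference of these effects, LAPS against dKO and against WT, and the WT lines of C2 against C1. Settings were changed 1 at a time in 8 alternatives: a pseudocount of 0.1, a pseudocount of 5, all genes with a read, quantile normalization, fits restricted to the compared groups, a block for the replicate number, edgeR 4.0.16, and DESeq2 1.42.0, the last 2 on the recovered reads. Each library was also left out in turn. The fits were tested on simulated data. Replicates of a group differed by more than the sampling noise of their reads.

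The 10 genes and the lists were chosen with earlier results of these data known. All 10 genes are named. Of each of the 6 lists, at most 2 genes called with the same sign in C1 and C2 and at most 2 with a called difference between the clones are named, taking the largest. Levels per kb use the union of exons in the mm10 annotation. Promoter windows are from RefSeq (GRCm38.p6). Python 3.11.15 (pandas 2.3.3, with numpy 2.4.6) wrote the tables, and matplotlib 3.10.9 drew the plots.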

Additional observations from a re-analysis of the deposited data

Results flagged for a closer look

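The effect of dKO against WT cells differed between the clones by the test of the difference itself (limma, adjusted p under 0.05) for 4 of the 10 genes and for 8 of the 41 tested genes of the lists, against 29.4% of all genes tested. Values are the log2 effect in C2 minus that in C1. In the YEATS and DOT1L group they were -1.66 for Mllt3 (adjusted p = 0.00104), 0.49 for Dot1l (0.00383) and 0.27 for Mllt10 (0.0277). For the scaffold gene Aff1 the value was 0.83 (adjusted p = 4.46e-05). Among methyltransferases and subunits of their complexes they were -1.59 for Ash2l (adjusted p = 1.73e-07), 0.64 for Setd1b (0.000715) and 0.64 for Hcfc2 (0.00194), and 0.46 for Rbbp5 (0.00433), a subunit that the rule for named genes leaves out and that was added after its value was seen. Among elongation factors they were 0.72 for Cdc73 (adjusted p = 0.0144), 0.57 for Ccnt2 (0.0341) and -0.38 for Nelfcd (0.0199). For Bcor the value was -1.25 (adjusted p = 1.53e-06).

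The call for Ccnt2 was lost under quantile normalization (0.0631) and without C1 WT replicate 1 (0.0734) or 2 (0.0819), C1 dKO replicate 2 (0.0825), C2 WT replicate 1 (0.0535) or 3 (0.0878) or C2 dKO replicate 1 (0.0848) or 3 (0.0601). That for Nelfcd was lost without C1 WT replicate 1 (0.0539), C1 dKO replicate 2 (0.0524) or C2 dKO replicate 1 (0.0527). That for Mllt10 was lost under quantile normalization (adjusted p = 0.187, limma) and with no filter on low values (0.0599). The Mllt10 call was also lost without some single libraries, as given with that gene. Each clone has 1 WT and 1 dKO line, and clone and line cannot be told apart.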

How the results depend on the processing

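With no filter on low values, more genes were tested and the share of all genes called went to 19.2% (C1), 19.7% (C2), 15.3% (difference between the clones), 1.90% (LAPS against dKO), 16.9% (LAPS against WT) and 23.3% (WT lines). Of the 10 genes, 5 were called in C1 under quantile normalization (37.3% of all genes) and 2 for LAPS against WT in a fit of these groups only (24.7% of all genes), and the cause was not tested. Leaving out 1 library gave 2 to 4 calls among the 10 genes in C2, with 2 without C2 WT replicate 3 or C2 dKO replicate 2. It gave 2.11% to 3.79% of all genes for LAPS against dKO, with at most 2.78% without a C1 dKO library or LAPS replicate 2 or 3.

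Reversed signs were all of differences that had not passed. Under quantile normalization they were those between the clones of Psip1 (-0.029), Mllt1 (-0.031) and Hexim1 (-0.076), that of Men1 for LAPS against WT (0.055) and that of Mllt10 between the WT lines (0.012), and the cause was not tested. Leaving out 1 library, fewer samples, gave ranges across 0. In C1 they were -0.18 to 0.041 (Men1), -0.070 to 0.16 (Psip1), -0.083 to 0.12 (Mllt1) and -0.053 to 0.14 (Aff4), and in C2 -0.0077 to 0.14 (Mllt1). For the difference between the clones they were -0.17 to 0.19 (Kmt2a), -0.035 to 0.19 (Psip1), -0.051 to 0.15 (Mllt1), -0.029 to 0.063 (Hexim1) and -0.031 to 0.11 (Leo1). For LAPS against dKO they were -0.088 to 0.14 (Men1), -0.028 to 0.061 (Aff1) and -0.0075 to 0.12 (Aff4), and for LAPS against WT -0.19 to 0.10 (Men1). Between the WT lines they were -0.29 to 0.052 (Kmt2a) and -0.077 to 0.00091 (Mllt10).

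Replicate numbers are not said to pair samples. Same-number correlations of deviations ran from -0.02 to 0.13 for dKO and WT in C1 and from -0.17 to 0.06 in C2. For LAPS they ran from -0.13 to 0.10 with dKO and from -0.04 to 0.30 with WT. Those of the WT lines ran from -0.02 to 0.21. With the replicate number as a block, the call of Mllt10 in C1 was lost (adjusted p = 0.0567) and Kmt2a was called in C1 (0.0446) and C2 (0.0475). Each group holds 3 libraries of 1 line, and Mllt3 has few reads.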
